A study of Mus musculus with 3 samples.

Results

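Head-to-head pairs are 2 protein-coding genes on opposite strands that are read away from each other, with their start sites close together, so that the DNA between them serves as the promoter of both. In the mouse annotation GENCODE M21 (build mm10), 1056 such pairs had start sites at most 1 kb apart, and they held 2088 of 21646 protein-coding genes, or 9.65%. A pair is written here as the minus-strand gene, which lies to the left, then the plus-strand gene. For each pair the start sites used were the nearest divergent ones of its coding transcripts, and the region examined ran from 200 bp inside one gene to 200 bp inside the other. The start sites lay between 0 and 987 bp apart, with a median of 120.5 bp and quartiles of 66 and 243 bp. At 766 pairs these were the outermost coding starts of both genes, and at 290 pairs at least 1 gene also had a coding start further out. A total of 24 genes sat in 2 pairs, and 24 neighbouring regions overlapped. Coding genes with no opposite-strand coding start within 1 kb gave 19149 one-way promoters for comparison, each as a window of 521 bp, the median width of the pair regions, that reached 320 bp upstream of the outermost coding start. The remaining 409 coding genes, among them those of 152 pairs whose start sites overlap in the reverse order, were in neither set.

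The data are DNase-seq, in which the nuclease DNase I cuts accessible chromatin, from Müller cells, the radial glia that span the retina and support its neurons. The cells were primary cells of 12 day old B6NCrl mice, with no genetic change or treatment named in the labels, and males and females were pooled. There is 1 group of 3 biological replicates, each with a biosample label of its own but all with the same donor label, so the spread between them may be partly technical. The linked protocol is one for cultured cells, and the labels name no sort and no time in culture. After removal of repeated entries, replicates 1, 2 and 3 had 300269, 281185 and 184544 peaks. Each peak is a stretch of 150 bp or slightly less with a score from 1 to 150 whose meaning is not stated in the sources used here, and read depth is unknown. Scores are therefore given per replicate and compared between promoter classes only within a replicate.

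Bidirectional promoters are a common arrangement in mammalian genomes. They are known for lying in CpG islands, stretches rich in unmethylated CG dinucleotides, for rarely holding a TATA box, and for serving genes that most cells need, such as those of DNA repair, mitochondria and protein synthesis. Both genes are read from one accessible stretch, and each has its own start complex facing outwards.

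The DNA between the start sites of 8 pairs is shown to let the shared promoters be read next to their values. Each is the plus strand of mm10, 5′ to 3′, from the base after the minus-strand gene's start site to the base before the plus-strand gene's start site, and none overlaps an annotated exon. Capitals mark matches on either strand to short recognition letters. NF-Y binds the box written CCAAT, which reads ATTGG on the opposite strand. ETS factors are given by CCGGAAG, and SP and KLF factors by GGGCGG. The box that places the start complex is given by the letters TATAAA, and TEAD factors are given by GGAATG. Aurka/Cstf1 (chr2:172370536-172370680) joins a mitotic kinase and an mRNA 3′-end cleavage factor, and Aimp2/Pms2 (chr5:143909848-143909963) joins a scaffold protein of tRNA synthetases and a mismatch repair gene. Fbxo24/Lrch4 (chr5:137629003-137629120) had one of the highest scores of all pairs. Rom1/Eml3 (chr19:8929357-8929551) includes Rom1, a structural protein of photoreceptor outer segments. Hist1h2ac/Hist1h2bc (chr13:23683949-23684198), Hist2h2ac/Hist2h2be (chr3:96220881-96221118) and Hist1h2ap/Hist1h2br (chr13:21833508-21833742) are pairs of an H2A and an H2B gene, the first with scores that differed between replicates, the second with even scores and the third without a peak. Abcg5/Abcg8 (chr17:84683012-84683120), which encodes a sterol exporter made of both proteins, active in liver and intestine, had no peak and was chosen after its values were seen.
Aurka/Cstf1: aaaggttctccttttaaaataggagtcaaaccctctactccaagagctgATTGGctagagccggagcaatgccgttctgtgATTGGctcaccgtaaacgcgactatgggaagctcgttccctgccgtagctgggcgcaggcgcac
Aimp2/Pms2: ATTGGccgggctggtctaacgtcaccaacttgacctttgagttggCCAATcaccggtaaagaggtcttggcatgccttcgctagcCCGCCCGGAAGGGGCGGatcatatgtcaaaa
Fbxo24/Lrch4: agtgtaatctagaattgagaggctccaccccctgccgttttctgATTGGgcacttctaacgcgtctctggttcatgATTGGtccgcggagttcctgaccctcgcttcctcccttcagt
Rom1/Eml3: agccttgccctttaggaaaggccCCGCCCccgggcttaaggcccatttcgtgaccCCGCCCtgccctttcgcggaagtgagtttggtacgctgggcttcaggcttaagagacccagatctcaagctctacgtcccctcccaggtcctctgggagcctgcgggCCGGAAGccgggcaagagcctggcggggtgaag
Hist1h2ac/Hist1h2bc: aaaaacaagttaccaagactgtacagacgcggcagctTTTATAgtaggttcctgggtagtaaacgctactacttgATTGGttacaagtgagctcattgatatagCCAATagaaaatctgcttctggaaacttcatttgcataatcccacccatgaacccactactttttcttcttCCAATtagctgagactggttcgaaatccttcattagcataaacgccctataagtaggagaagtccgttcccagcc
Hist2h2ac/Hist2h2be: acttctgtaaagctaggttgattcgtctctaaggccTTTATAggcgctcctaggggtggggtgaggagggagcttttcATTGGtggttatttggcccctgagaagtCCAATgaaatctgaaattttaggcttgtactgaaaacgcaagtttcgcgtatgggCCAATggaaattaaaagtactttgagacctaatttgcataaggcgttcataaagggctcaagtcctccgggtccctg
Hist1h2ap/Hist1h2br: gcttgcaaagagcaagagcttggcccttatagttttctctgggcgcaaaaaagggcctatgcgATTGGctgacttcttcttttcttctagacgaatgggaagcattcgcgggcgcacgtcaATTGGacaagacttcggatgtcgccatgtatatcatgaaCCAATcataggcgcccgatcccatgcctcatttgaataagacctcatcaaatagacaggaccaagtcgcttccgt
Abcg5/Abcg8: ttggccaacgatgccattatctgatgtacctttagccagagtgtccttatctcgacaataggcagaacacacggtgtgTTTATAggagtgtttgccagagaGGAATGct

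These stretches differ in the letters they hold. The Aurka/Cstf1 stretch of 145 bases and the Fbxo24/Lrch4 stretch of 118 bases each had 2 NF-Y boxes and no TATA box. In the Aimp2/Pms2 stretch of 116 bases, an ETS match and 2 SP matches formed a run near the Pms2 start, and 2 NF-Y boxes lay further left. The histone stretches, of 250, 238 and 235 bases, each had 3 NF-Y boxes, and Hist1h2ac/Hist1h2bc and Hist2h2ac/Hist2h2be had a TATA box as well. The Abcg5/Abcg8 stretch of 109 bases had a TATA box and a TEAD match.

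Nearly all pair regions were accessible. A peak overlapped 1000 of 1056 pair regions in replicate 1 (94.7%), 1002 in replicate 2 (94.9%) and 986 in replicate 3 (93.4%), by at least 1 bp. Over pairs and one-way promoters together, 61% of regions had a peak in replicate 1, 60.1% in replicate 2 and 58.2% in replicate 3. One-way promoters had a peak in 59.2%, 58.2% and 56.3% of windows. The pair regions were thus ahead in each replicate, by 36.4 ± 0.828 percentage points (SD, n = 3). That difference was far larger than the spread between replicates and was seen in 3 of 3, but an exact two-sided sign-flip permutation test over 3 replicates can give no p under 0.25, which is the p here. In 984 pairs (93.2%) the region had a peak of every replicate, against 10205 one-way promoters (53.3%) and 55.4% of all regions of both sets. No replicate had a peak at 49 pairs (4.64%), and 23 pairs had one in some replicates only. The share with a peak of every replicate was 94.7% where the outermost starts of both genes were used and 89.3% at the other 290 pairs.

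Peaks in pair regions were also the stronger ones. The median score of the strongest peak was 136, 131.5 and 124.5 in replicates 1, 2 and 3 for pairs with a peak, against 118, 109 and 109 for one-way promoters with a peak. This difference of 18.7 ± 3.55 (SD, n = 3) had the same direction in every replicate (exact sign-flip permutation test, p = 0.25, the smallest possible). A score of at least 140, near the upper end of the scale, was reached by 38.4%, 25.8% and 11.8% of pairs with a peak, and by 16.9%, 10.5% and 5.52% of one-way promoters with a peak. Scores of the 984 pairs ranked alike in the replicates, with a Spearman's rank correlation of 0.925 for replicates 1 and 2, of 0.782 for 1 and 3, and of 0.783 for 2 and 3, across regions that are not independent replicates. Hotspots, the wider accessible regions of the deposited lists, overlapped 95.3%, 95.4% and 95.3% of pair regions in replicates 1, 2 and 3. They overlapped 61.3%, 59.98% and 59.34% of one-way windows. The widest hotspot at a pair region had a median width of 1318, 1046 and 1353.5 bp. One-way promoters had narrower ones, at 968.5, 751 and 1094 bp.

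**Figure D1:**
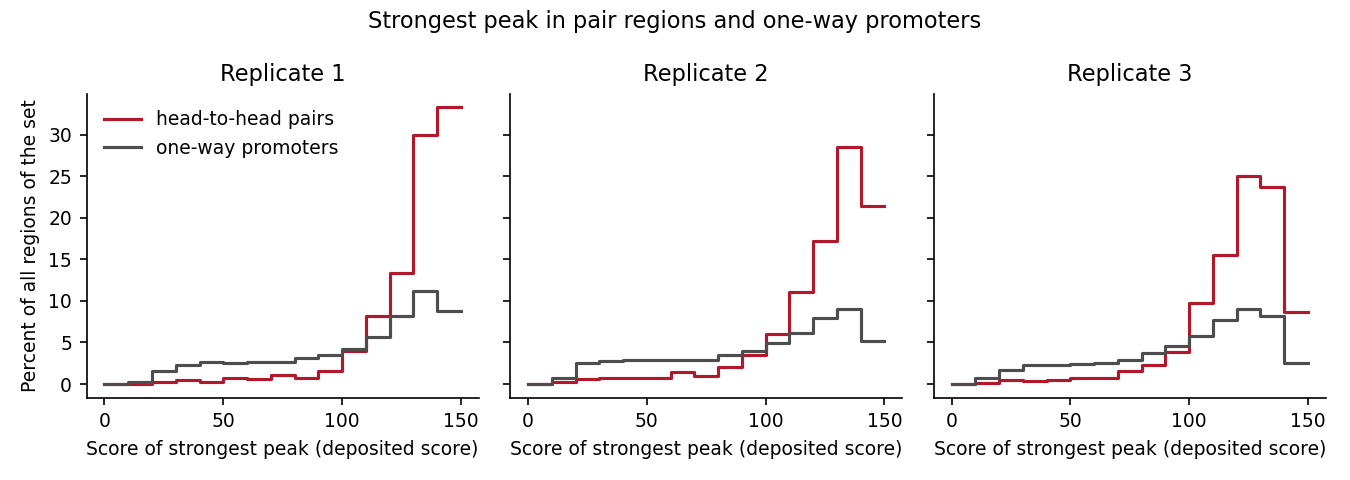
Share of regions (percent of all regions of the set, vertical axis) by the deposited score of their strongest peak (horizontal axis, steps of 10), for 1056 pair regions in red and 19149 one-way promoters in grey, in 1 panel for each replicate. Regions without a peak are not drawn. The red curve is concentrated at high scores, with medians of 136, 131.5 and 124.5, while the grey one spreads over the whole scale.

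CpG content moved with this difference. The CpG ratio, which is the number of CG dinucleotides over that expected from the C and G content of the region, had a median of 0.819 in pairs and 0.513 in one-way promoters, and reached 0.6 in 921 pairs (87.2%) but in 8423 one-way promoters (44.0%). Among regions at or above 0.6, pairs had a peak in 98.3% ± 0.411 and one-way promoters in 93.8% ± 0.377 (SD, n = 3), a difference of 4.47 ± 0.647 points (exact sign-flip permutation test, p = 0.25). Within that class the median score was 10 ± 2 higher in pairs, and 97.7% of pairs against 91.3% of one-way promoters had a peak of every replicate (92% of both sets together). Ratios were not matched within a class, and over the whole sets the lower quartile was 0.71 in pairs and 0.2 in one-way promoters. The class under 0.6 is where the sets stood furthest apart. Its 135 pairs had a peak in 68.9%, 69.6% and 63.0% of regions in replicates 1, 2 and 3, and its 10726 one-way promoters in 31.7%, 30.5% and 26.7%, which differ by 37.5 ± 1.45 points (p = 0.25 by the same exact permutation test). The median score there was 116 ± 5.13 in pairs and 73.3 ± 5.51 in one-way promoters, and a peak of every replicate was seen at 62.2% of pairs and 23.4% of one-way promoters (23.9% of both). One-way promoters that have a noncoding start on the opposite strand within 1 kb, 2178 in number, lay in between, with a peak in 78.5% ± 0.763.

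**Figure D2:**
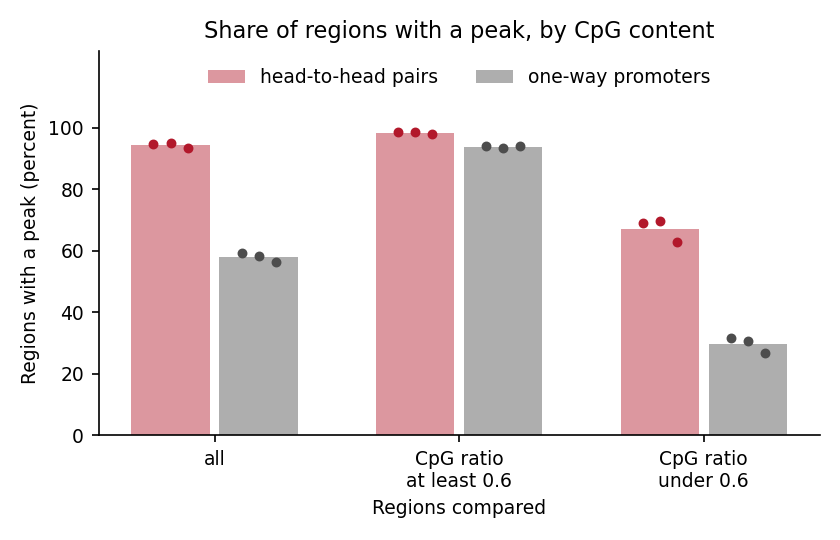
Percent of regions with a peak (vertical axis) for all regions and for those with a CpG ratio of at least 0.6 or under 0.6 (horizontal axis). Bars are means of 3 replicates and points are the replicates, red for head-to-head pairs and grey for one-way promoters. The sets lie close at a high CpG ratio, at 98.3% and 93.8%, and far apart at a low one, at 67.2% and 29.7%.

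The strongest peak sat between the start sites in most pairs, though not in most of those up to 100 bp apart. The centre of the strongest peak lay between them in 62.2% ± 0.992 of pairs with a peak (SD, n = 3), although this interval makes up 27.1% of the region on average. Counted as positive towards the plus-strand gene, the offset of the centre from the midpoint of the start sites had a median of 1.33 bp. Its quartiles were -36.6 and 43 bp in replicate 1, -36.5 and 42.5 bp in replicate 2, and -44.9 and 45 bp in replicate 3. The signed median shows balance between left and right and does not measure closeness to the midpoint. When the centre fell inside a gene, it was the minus-strand gene in 175, 178 and 197 pairs and the plus-strand gene in 194, 198 and 186 pairs of replicates 1, 2 and 3. A single strongest peak covered both start sites at 31.3%, 32.1% and 30.0% of pairs. One-way promoters had their strongest peak upstream of the start in 64.9% ± 3.75, with 61.4% of the window there, and a median centre 27.2 bp upstream.

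The number and place of the peaks varied with the distance between the genes. In the 441 pairs with start sites 0 to 100 bp apart, the strongest peak had a median distance of 30.3 ± 0.764 bp from the midpoint, and it was 33.3 ± 4.13 bp in the 288 pairs at 101 to 200 bp and 36.8 ± 11.9 bp in the 126 pairs at 201 to 300 bp. It was 132 ± 1.32 bp in the 104 pairs at 301 to 500 bp and 333 ± 9.13 bp in the 97 pairs at 501 to 1000 bp. The median distance from the nearest start site was 21.5, 45, 86.7, 83.8 and 82 bp from the closest class to the widest. It thus levelled off above 200 bp while the distance from the midpoint went on growing. By these medians the peak was nearer to the midpoint from 101 to 300 bp, and nearer to a start site in the closest class and above 300 bp. Centres between the start sites made up 42.7% ± 0.677, 77.2% ± 2.09, 81.6% ± 3.16, 75.9% ± 0.545 and 69.7% ± 4.51 of the strongest peaks from the closest class to the widest (SD, n = 3).

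The strongest peaks of the closest pairs scored lower than those of wider pairs. Their median score was 132, 127 and 121 in replicates 1, 2 and 3, and that of pairs at 301 to 500 bp was 141, 137.5 and 132. The difference within a replicate was 7.33 ± 0.577, 9.5 ± 1.5, 10.2 ± 1.04 and 4.83 ± 0.289 (SD, n = 3) for the classes from 101 to 200 bp up to 501 to 1000 bp, higher in 3 of 3 replicates each (exact sign-flip permutation test, p = 0.25). In wider pairs the strongest peak is taken from a wider region. The distance classes were not compared at equal region width or CpG ratio, and the part of this in the scores was not tested.

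**Figure D3:**
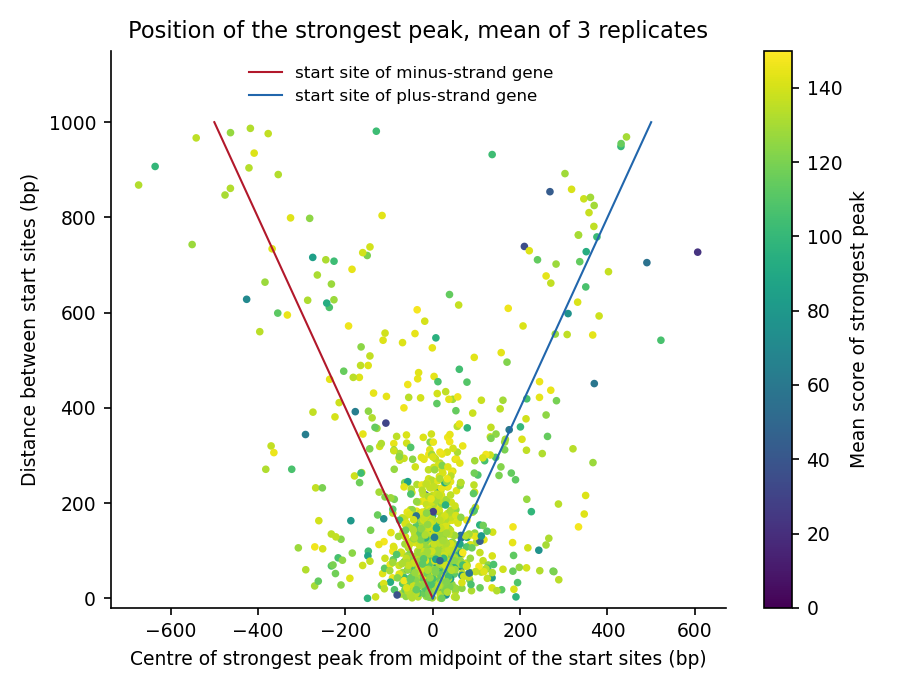
Each point is one of the 984 pairs with a peak of every replicate. The horizontal axis is the centre of the strongest peak in bp from the midpoint of the start sites (mean of 3 replicates), the vertical axis is the distance between the start sites in bp, and the colour is the mean score. The lines mark the start sites of the minus-strand gene (red) and the plus-strand gene (blue). Points gather round the midpoint up to a distance of 300 bp and spread towards both lines in wider pairs.

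Wider pairs more often had separate peaks. At least 2 peak segments that do not touch were found in 16.3% ± 1.07, 17.5% ± 1.12, 32.0% ± 2.00, 51.6% ± 6.55 and 66.7% ± 2.59 of pairs (SD, n = 3) from the closest class to the widest. A wider region has room for more peaks, so one-way windows of 1 width for each distance class, from 459 to 1109 bp, were counted too. Only regions with a CpG ratio of at least 0.6 were compared. Pair regions within a class varied in width, so width was matched by class and not by region. A pair region also holds 2 start sites and a one-way window is laid at a single one. The part of this in the difference was not tested. At 0 to 100 bp the shares were 17.5% ± 1.15 in 410 pairs and 11.6% ± 0.304 in one-way promoters. At 501 to 1000 bp they were 81.9% ± 4.89 in 59 pairs and 38.0% ± 4.48 in one-way promoters with windows of 1109 bp. The difference grew from 5.87 ± 1.36 and 3.23 ± 1.22 points in the 2 closest classes to 13.0 ± 1.83, 27.7 ± 4.13 and 43.9 ± 0.804 points in the wider ones (each with an exact sign-flip permutation p of 0.25, higher in 3 of 3 replicates). Of the 131 pairs over 400 bp apart, a peak centre lay within 200 bp of both start sites in 61, 63 and 55 pairs of replicates 1, 2 and 3, of 1 start site in 51, 49 and 55, and of neither in 19, 19 and 21. In 42 of them both starts had such a peak in every replicate, and in 27 the same single start did. Among all one-way starts, 53.5% ± 1.46 had a peak centre within 200 bp. This share is per start and not per pair. Neither it nor the counts for pairs over 400 bp apart were limited by CpG ratio, which was not matched here.

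**Figure D4:**
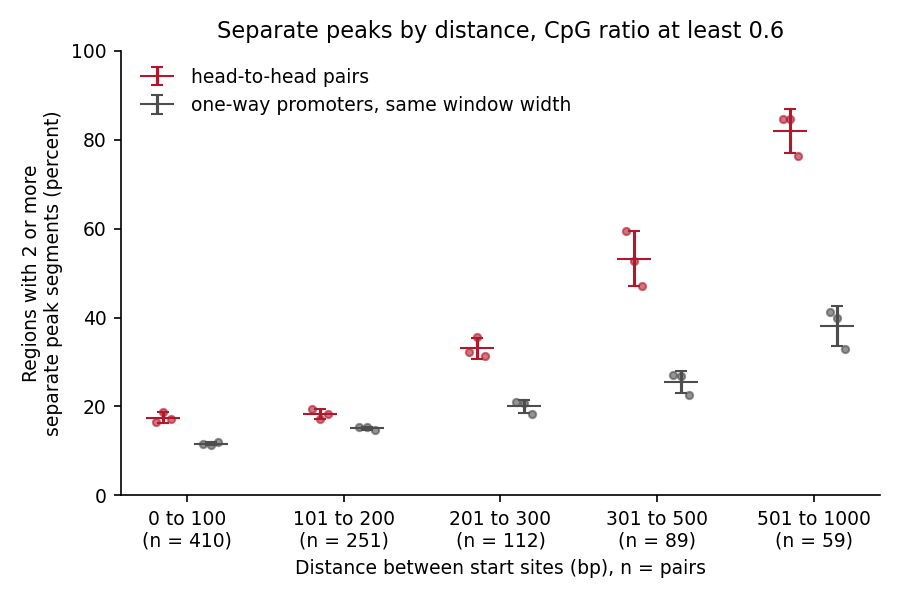
Percent of regions with 2 or more separate peak segments (vertical axis) by distance between start sites in bp (horizontal axis, with the number of pairs), in regions with a CpG ratio of at least 0.6. Red is head-to-head pairs and grey is one-way promoters with windows of 1 width for each distance class. Horizontal marks with bars are means ± SD of 3 replicates and points are the replicates. Pairs rise from 17.5% to 81.9% and one-way promoters from 11.6% to 38.0%.

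Single pairs show both forms. Btf3l4/Txndc12, the widest pair at 987 bp, had 3 peaks in each replicate, and its strongest, with scores of 134, 135 and 130, was centred 76 bp to the right of the Btf3l4 start in all 3. In contrast, Mms19/Ubtd1 is 606 bp wide and had 1 peak in each replicate, centred 214, 314 and 274 bp to the right of the Mms19 start, with scores of 149, 147 and 147. Mms19 loads iron-sulfur clusters into DNA repair enzymes. The most peaks summed over replicates were at 2700097O09Rik/Srp54a and Rps27a/Clhc1, with 4 in each replicate, and at Mfsd8/Abhd18, with 4, 3 and 4. Srp54a is part of the signal recognition particle, and Rps27a encodes a ribosomal protein fused to ubiquitin. Nsa2/Gfm2 and Rnaseh2a/Prdx2 were at the shortest distance, 0 bp. Nsa2/Gfm2, a ribosome biogenesis factor and a mitochondrial elongation factor, share 1 start position and had 2 peaks in each replicate, with strongest scores of 123, 123 and 104. Rnaseh2a/Prdx2 had 2, 2 and 1 peaks in replicates 1, 2 and 3, with strongest scores of 91, 87 and 111. Its strongest peak was centred 156, 136 and 156 bp to the left of the shared start.

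Of the well-known bidirectional pairs listed, 11 met the distance rule and 11 had a peak in all 3 replicates, where 93.2% of all pairs had one, with median scores of 143, 138 and 130. The list was chosen from textbook examples, and genes of most cells dominate it. Hspd1/Hspe1 encodes the mitochondrial chaperonin and its cofactor from start sites 108 bp apart, and had scores of 149, 146 and 145 in replicates 1, 2 and 3 with a single peak centred 66, 86 and 66 bp to the right of the Hspd1 start. Atm/Npat joins the DNA break kinase and an activator of histone genes across 307 bp, and scored 150, 148 and 141 with the peak 170 bp from the Atm start in each replicate. Both peaks thus lay between the start sites in every replicate. Mcm4/Prkdc, a subunit of the replicative helicase and the DNA-dependent protein kinase 489 bp away, scored 146, 145 and 136. Brca1/Nbr1, a recombination gene and an autophagy receptor, scored 138, 133 and 136. Gart/Son, a purine synthesis enzyme and a splicing factor 554 bp apart, had its strongest peak inside Son in replicates 1 and 2 and near the Gart start in replicate 3, with scores of 145, 140 and 122.

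The 2 lowest of the well-known pairs hold genes known from few cell types. Col4a4/Col4a3 encodes basement membrane collagen chains of kidney and eye, has a CpG ratio of 0.466, and scored 61, 50 and 63. Rom1/Eml3, the rod pair whose sequence is given above, scored 105, 77 and 105, with the peak centred nearer to the Eml3 start in each replicate. Surf1/Surf2, a cytochrome oxidase assembly factor beside a gene 22 bp away, scored 118, 113 and 117. Psmb9/Tap1, an immunoproteasome subunit and the peptide transporter of antigen presentation 38 bp apart, scored 127, 120 and 121. Aurka/Cstf1, with the 2 NF-Y boxes shown above, scored 143, 138 and 130, and Mrps12/Sars2, a mitochondrial ribosomal protein and a mitochondrial tRNA synthetase, scored 143, 145 and 130.

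**Figure D5:**
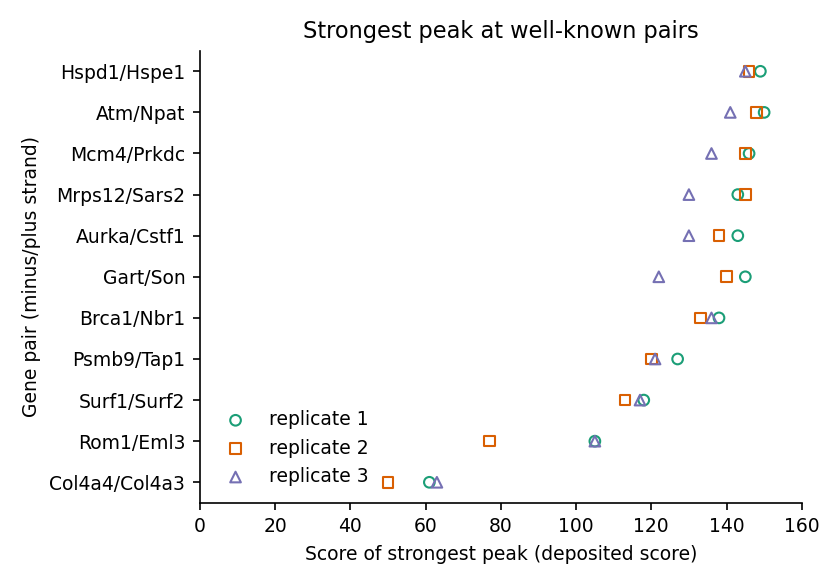
Deposited score of the strongest peak (horizontal axis) in each replicate (green circle, orange square and purple triangle for replicates 1, 2 and 3) for 11 well-known pairs (vertical axis, ordered by their mean). Hspd1/Hspe1 is highest, at 145 to 149, and Col4a4/Col4a3 lowest, at 50 to 63.

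Several classes of basic cell functions had a larger share of their genes in pairs than all coding genes. That is a feature of the annotation and not of these data. In the lists used, 39 of 114 genes of DNA repair and replication (34.2%) were in a pair, as were 26 of 78 of the mitochondrial ribosome (33.3%), 34 of 109 of the respiratory chain (31.2%), 35 of 155 of cilia and centrosomes (22.6%) and 15 of 102 of the cytosolic ribosome (14.7%), beside 9.65% of all coding genes. The share was lower for listed cell cycle genes, at 2 of 41 (4.88%). It was 24 of 371 for solute carriers (6.47%) and 1 of 1463 for olfactory and vomeronasal receptors (0.0683%), and no Hox, claudin or protocadherin gene was in a pair.

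Accessibility was near complete in these classes. A peak of every replicate was present at 25 of 25 pairs with a mitochondrial ribosome gene, 34 of 35 with a respiratory chain gene, 37 of 39 with a DNA repair or replication gene, 14 of 15 with a cytosolic ribosome gene, 11 of 11 with a proteasome gene, 8 of 8 with a tRNA synthetase and 33 of 35 with a cilium or centrosome gene, where all pairs had 93.2%. Classes with fewer genes in pairs looked alike, at 23 of 24 for solute carriers and 27 of 29 for zinc finger genes. The classes were not tested against all pairs. Within the classes the strongest peaks varied widely. Mrpl18/Tcp1, a mitochondrial ribosomal protein and a chaperonin subunit, scored 150, 148 and 140, whereas Zfp661/Mrps5 scored 102, 63 and 85. In DNA repair, Xrcc3/Zfyve21 was highest at 150, 147 and 144, and Aimp2/Pms2 scored 140, 140 and 138 with its peak centred 64 bp to the right of the Aimp2 start in each replicate, among the motif matches given above. Ankrd49/Mre11a, whose Mre11a product trims broken DNA ends, scored 146, 136 and 122, lower than these in replicate 3.

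The highest scores belonged to pairs of varied function. By the lowest rank that a pair took in any replicate, Phtf2/Tmem60, with 149, 148 and 145, and Mms19/Ubtd1 came first. Cep57/Fam76b with 148, 147 and 144, Fbxo24/Lrch4 with 148, 148 and 146, Gm10644/Asf1b with 149, 147 and 144, and Xrcc3/Zfyve21 were among those tied after them. Cep57 is a centrosomal protein and Asf1b a histone chaperone of replication. Fbxo24/Lrch4 had its peak centred 72, 32 and 52 bp to the left of the Fbxo24 start, inside that gene, and so beside rather than within the sequence shown.

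Most pairs with a histone gene ranked lower in replicate 3 than in the other replicates. Canonical histone genes are expressed while DNA is replicated, and H2A and H2B genes are often arranged head to head; 27 of 70 listed histone genes were in a pair. Of 14 pairs with a histone gene, 11 had a peak of every replicate, with median scores of 141 and 135 in replicates 1 and 2 and 107 in replicate 3. Bola1/Hist2h2ab is counted among the 11 although only Hist2h2ab is a histone gene, and it scored 118, 110 and 90. Hist1h2ac/Hist1h2bc scored 148, 141 and 106, Hist1h2ae/Hist1h2bg 144, 137 and 107, and Hist1h2bh/Hist1h3f 143, 134 and 105. Among the 984 pairs open in every replicate, the median percentile of the 11 histone pairs was 66.6 in replicate 1, 60.2 in replicate 2 and 17.4 in replicate 3, and 10 of 11 ranked lowest in replicate 3, compared with 39.0% of all these pairs. The exception was Hist2h2ac/Hist2h2be on chromosome 3, whose sequence with a TATA box is given above, at 136, 132 and 129. Replicate 3 also had the fewest peaks, and the part of that in this result was not tested. These pairs were singled out after their values were seen, 9 of the 11 lie in the Hist1 cluster on chromosome 13, and their sequences are similar, so reads may be shared between copies.

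The 3 other histone pairs, Hist1h2ap/Hist1h2br, Hist1h2bq/Hist1h2ao and Hist1h2ba/Hist1h2aa, had no peak in any replicate. Hist1h2ap/Hist1h2br has 3 NF-Y boxes between its start sites, as Hist1h2ac/Hist1h2bc does, and a CpG ratio of 0.888. Hist1h2ba/Hist1h2aa encodes testis variants of H2B and H2A and has a ratio of 0.578. Histone genes of one kind are near-identical copies, and no source used here says how reads that match several copies were treated, so an absent peak at Hist1h2ap/Hist1h2br or Hist1h2bq/Hist1h2ao is uncertain.

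Pairs without a peak were mostly CpG-poor, and several hold tissue-specific genes. The 49 had a median CpG ratio of 0.253, and 12 of them reached 0.6. At 33 both start sites were the outermost coding ones, and at 14 both genes, at 11 only 1 gene and at 24 neither gene had a peak of every replicate within 1 kb of any of its coding starts. No peak lay within 1 kb of the region in any replicate at 34 of the 49. Best1/Rab3il1 was not among these 34, and its nearest peak was 828, 828 and 848 bp from the region in replicates 1, 2 and 3. Best1 encodes a chloride channel of the retinal pigment epithelium, the start sites are 36 bp apart and the CpG ratio is 0.0309. Rab3il1 had a peak of every replicate within 1 kb of a coding start, and Best1 did not. Il11/Tmem190, with a cytokine gene, and Dusp3/Cfap97d1, with a gene of sperm tails, had ratios of 0.111 and 0.294. Both Dusp3 and Cfap97d1 had a peak of every replicate within 1 kb of a coding start. The peak nearest to that pair region was 488, 488 and 508 bp away in replicates 1, 2 and 3. Abcg5/Abcg8 had a ratio of 0.187.

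Several of the 49 include genes that most cells use, and a peak often lay nearby. In 1700088E04Rik/Polr2f, where Polr2f encodes an RNA polymerase subunit, the nearest peak was 7 bp outside the region in each replicate. For Ndufa5/Asb15, a respiratory chain subunit and a muscle gene, it was 88, 88 and 108 bp away in replicates 1, 2 and 3. At Derl2/Mis12, with genes of protein quality control and of the kinetochore, a CpG ratio of 0.968 and starts 18 bp apart, it was 116, 136 and 96 bp away. Rnf151/Rps2 includes a ribosomal protein gene and has a CpG ratio of 0.134. Its nearest peak was 1600, 1600 and 1580 bp from the region, within 1 kb of another coding start of Rps2, and Rnf151, a testis gene, had none within 1 kb. Apex2/Pfkfb1, a DNA repair endonuclease and a glycolytic regulator, had its nearest peak 979, 959 and 979 bp away.

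The replicates disagreed on 23 pairs. A peak in replicates 1 and 2 without replicate 3 was the most common pattern, at 12 pairs; in 11 of these replicate 3 had a peak within 1 kb of the region, and in 10 a hotspot of replicate 3 overlapped it. Zfp408/Arhgap1 scored 142 and 141 in replicates 1 and 2, and the nearest replicate 3 peak was 16 bp outside the region. Odr4/Tpr, with a nuclear pore gene, scored 137 and 130 with the replicate 3 peak 58 bp away, and Rnf121/Xndc1 scored 134 and 114 with it 4 bp away. In these pairs the replicate 3 peak lay just beyond the edge of the region. Trp53i13/Abhd15 was the single pair with a peak in replicate 3 alone, with a score of 37.

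Of the listed marker genes, 1 of 10 for Müller glia, 2 of 17 for rods and 1 of 10 for cones were in a pair. It was 2 of 18 for microglia and macrophages and 1 of 8 for endothelium, with none for neurons or for fibroblasts and mural cells. The share over all coding genes was 9.65%. As a check of the label, 10 of 10 listed Müller glia genes had a peak of every replicate within 200 bp of a coding start, beside 62.0% of all coding genes. The counts were 3 of 17 for rods, 4 of 10 for cones, 2 of 8 for endothelium and 6 of 18 for microglia and macrophages, with Nrl, Csf1r and Cx3cr1 among those without, and 6 of 7 for neurons and 5 of 7 for fibroblasts and mural cells. In Teddm2/Glul, Glul encodes glutamine synthetase, a defining enzyme of Müller glia, and the pair region scored 110 and 56 in replicates 1 and 2 with no peak in replicate 3. The Glul start used here, 398 bp from that of Teddm2, is an inner one: its outermost coding start lies 264 bp to the left of the Teddm2 start and had peaks of 142, 141 and 131 within 200 bp, so this glial marker had a peak of every replicate at that start. Pcsk4/Reep6 includes Reep6, a membrane protein of rods, and scored 147, 146 and 144 with the peak nearer to Reep6. Pecam1/Milr1, an endothelial adhesion gene and a receptor of mast cells, scored 95, 93 and 40, and Abi3/Gngt2, with the G protein subunit of cones, scored 35 in replicate 1 and had no peak in the others.

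Sequence letters differed between the promoter types in ways that partly followed CpG content. In windows of 300 bp, centred on the midpoint of the pair or reaching 250 bp upstream of a one-way start, the ETS letters CCGGAAG were found on either strand in 27.8% of pairs and 9.32% of one-way promoters. With a CpG ratio of at least 0.6 in both sets the shares were 30.9% and 17.0%. The YY1 letters AAGATGGC were in 7.77% and 2.51% (8.58% and 4.08% at the high ratio) and the NRF1 letters GCATGCGC in 5.97% and 3.14% (6.62% and 6.1%). CRE, TGACGTCA, which is bound by CREB and ATF factors, was in 4.55% and 2.28% (4.89% and 3.84%). These 4 were the more frequent in pairs in both comparisons, as was the NF-Y box given with the others further on. At the median distance of 120.5 bp a pair window holds both start sites. A one-way window holds a single start and reaches 50 bp into the gene. The amount of sequence searched near a start was thus not matched between the sets, and the part of this in the shares was not tested. The SP and KLF letters GGGCGG were in 65.1% of pairs and 41.9% of one-way promoters, but the direction turned at the high ratio, with 69.5% and 72.7%.

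The TATA box was the rarer in pairs, with TATAAA in 5.02% of pairs and 13.7% of one-way promoters (4.24% and 6.45% at the high CpG ratio). The NF-Y box CCAAT was in 41.1% and 38.7% (40.9% and 37.8%), the E-box CACGTG in 10.2% and 7.51%, the TEAD letters GGAATG in 9.94% and 13.8% (9.12% and 10.5%) and the AP-1 letters TGANTCA in 3.98% and 7.08%. At the high ratio the E-box was in 10.4% of pairs and 11.4% of one-way promoters and AP-1 in 3.80% and 3.53%, so both turned direction. No motif's letters contain those of another, although matches may overlap. Pairs with an NF-Y box had a median mean score of 136 and those without 127, and for the ETS letters the values were 131 and 131. They were 136 and 130 for TEAD, and 132 and 128 for SP and KLF. YY1, CRE and AP-1 were also slightly higher with a match. Scores were lower with a match for the E-box (127 and 131), NRF1 (129 and 131) and the TATA box (129 and 131). These are counts of letters in a fixed window and carry no test.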

How the data were processed

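DNase-seq peak and hotspot lists of 3 replicates of Müller cells were used. Per the deposited descriptions, the authors derived each list from the filtered alignments of that library and 1 further file, on mm10, so replicates were not pooled. The peak score, as deposited by the authors, is a whole number from 1 to 150 with no stated meaning. The hotspot value deposited by the authors is a −log10 q, from 1.30 to a cap of 100. Names of the aligner and peak caller were not given in the sources used here. No counts are given, so no counting interval was computed, and read depth is unknown.

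Repeated peak entries (21, 20 and 23) were removed. Start sites came from GENCODE M21 and sequences from RefSeq GRCm38.p6. A region had a peak if it overlapped by at least 1 bp. Pairs and one-way promoters were compared within each replicate, with the mean and SD over 3 replicates and an exact two-sided sign-flip permutation test, whose smallest p is 0.25. Regions are not replicates and were not tested. Alternatives covered the overlap rule, peak number and score, start sites, distance, windows, comparison set, CpG ratio and each replicate left out. The counting functions were tested on simulated peaks. Pairs named were textbook pairs, the strongest and most peak-rich, those without a peak at the shortest distances, those differing between replicates, those with cell type markers, the extremes of distance, and for each functional class the first by symbol and the highest and lowest. The NRF1 and YY1 letters were shortened, and 4 longer motifs dropped, after a first search. Not every pair that these rules name is reported here. The members, the lists and the alternatives were chosen with earlier results of these data known. Python 3.11.15, numpy 2.4.6, scipy 1.17.1 and matplotlib 3.10.9 were used.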

Additional observations from a re-analysis of the deposited data

How the results depend on the processing

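In the share with a peak, the median score and the mean number of peaks, pairs stayed above one-way promoters under every alternative run. The shares of regions with SP and KLF, E-box and AP-1 letters, which were compared by CpG ratio alone, changed direction at a ratio of at least 0.6. The share with a peak, 36.4 points higher in pairs, was 37.7 points higher with the peak centre inside the region, 38.7 with the same number of peaks from every replicate, 41.6 with peaks at or above the median score, 37.4 with outermost start sites, 34.3 with 400 bp windows at each start site, 33.4 with 1400 bp one-way windows, 39.1 without one-way genes that have any opposite-strand start, and 35.1 with hotspots. At a CpG ratio of at least 0.6 it was 4.47. Further alternatives were chosen after seeing the data: a CpG ratio from 0.8 to 1.0 gave 2.50 points, and 400 bp windows with a ratio of at least 0.6 gave 4.50. The score difference of 18.7 became 14 with peaks at or above the median score, 10 at a CpG ratio of at least 0.6, and 6.83 and 10.2 under the added alternatives.

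The difference in mean peaks per region, 0.582 (1.26 in pairs and 0.675 in one-way promoters), was 0.515 with the peak centre inside the region, 0.606 with equal peak numbers, 0.633 at or above the median score, 0.598 with outermost start sites, 0.530 with start sites at most 500 bp apart, 0.609 with overlapping pairs added, 0.402 with 400 bp windows, 0.362 with 1400 bp one-way windows, 0.615 without one-way genes that have any opposite-strand start, 0.204 at a CpG ratio of at least 0.6, and 0.141 and 0.0726 under the added alternatives. The share of strongest peaks between the start sites, 62.2%, was 64.9% with the peak centre inside the region, 66.8% with outermost start sites, 57.5% with overlapping pairs added and 65.2% at a CpG ratio from 0.8 to 1.0. Smaller windows and fewer regions follow from how those alternatives are built; otherwise the cause was not tested.

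Leaving out each replicate in turn gave 36.1 to 36.9 points, 16.8 to 20.3 in score, 0.577 to 0.585 peaks and 61.8% to 62.8% between the starts. No paired analysis was possible because the series has only 1 group, so no replicate block between groups exists; pairs and one-way promoters were compared within each replicate throughout. The score may saturate at 150, its meaning is not stated, and depth is unknown, so an absent peak may be one not detectable in that library.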
